A study of Mus musculus with 38 samples.

Results

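Activin A is a secreted dimer of 2 chains encoded by *Inhba*, and the 10 genes described here are *Inhba* itself, the receptor genes *Acvr1*, *Acvr1b*, *Acvr2a* and *Acvr2b*, the antagonist gene *Fst*, and the Smad genes *Smad2*, *Smad3*, *Smad4* and *Smad7*. They were taken by symbol from the 23420 genes counted in each library, and all 10 were present. Each library held RNA of 10 dentate granule cells aspirated from a male *Arc*::dVenus mouse on a C57BL/6J background, whose short-lived fluorescent reporter is under control of the *Arc* promoter, so that dVenus+ marks cells with recent activity of that promoter. One library of dVenus+ and one of neighbouring dVenus- cells came from each of 12 fear conditioned mice (FC, tones paired with shock), 4 mice given the same exposure without shock (NS) and 3 mice kept in the home cage (HC), with FC and NS cells collected the day after training. All groups, HC included, carried the reporter, and cells were picked by it, and adult mice were housed singly.

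Activin binds a type II receptor (*Acvr2a*, *Acvr2b*), which recruits a type I receptor (*Acvr1b*). The activated type I receptor phosphorylates Smad2 and Smad3, which enter the nucleus with Smad4 and change transcription. Follistatin, the product of *Fst*, traps activin outside the cell, and Smad7 inhibits the receptors from inside. *Acvr1* encodes a type I receptor best known for BMP ligands. In the hippocampus *Inhba* is known as a gene that neuronal activity induces.

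Reads on genes ran from 1352288 to 18394761 a library, so that 3 counts, taken as the limit of detection, corresponded to between 0.163 and 2.22 CPM. Levels below are CPM (each count relative to the reads on genes of its library) after TMM scaling, called normalized CPM, and the limit of detection covers counting error only, while the intervals and standard errors of fold changes also hold the variation between mice. *Arc*, the check of the labels, was higher in dVenus+ in 19 of 19 mice, but the dVenus- libraries of FC mice 06, 07 and 14 held 1276, 1095 and 2549 *Arc* counts, and the called results in FC mice and over all mice are also given without them. The dVenus+ library of FC mouse 05 stood apart, with 7860 genes detected, the fewest in its group. Summed markers of granule cells were lower in dVenus+ in all 19 mice, and those of microglia were higher in 10 of 12 FC, 4 of 4 NS and 3 of 3 HC mice. The prefixes of the sample IDs divide the FC mice into 3 batches and place all NS and HC mice in another, without saying what differed, so levels of FC against NS or HC mice cannot be told apart from the batch, whereas dVenus+ against dVenus- lies within a mouse and batch.

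The sequence before the start of *Inhba* is shown because it was the only one of the 10 genes called by edgeR with the mouse as block, with those of a receptor and a Smad gene that were not called set beside it as a description. Each line gives the 250 bases upstream of the RefSeq start (GRCm38.p6), 5′ to 3′ on the gene's strand, with matches to the searched motifs in capitals. The *Inhba* window lies at chr13:16011601-16011850 (+), that of *Acvr2a* at chr2:48813859-48814108 (+) and that of *Smad3* at chr9:63757995-63758244 (-).
Inhba: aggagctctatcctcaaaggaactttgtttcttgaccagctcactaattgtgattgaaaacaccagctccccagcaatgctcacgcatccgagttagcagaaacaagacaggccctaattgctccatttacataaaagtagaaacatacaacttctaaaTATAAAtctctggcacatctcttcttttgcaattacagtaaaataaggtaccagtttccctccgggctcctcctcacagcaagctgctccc
Acvr2a: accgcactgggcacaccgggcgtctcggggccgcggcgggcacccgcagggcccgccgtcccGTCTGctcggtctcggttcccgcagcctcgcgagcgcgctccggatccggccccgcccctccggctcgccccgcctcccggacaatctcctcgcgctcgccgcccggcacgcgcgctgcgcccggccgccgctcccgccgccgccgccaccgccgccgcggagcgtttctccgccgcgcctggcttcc
Smad3: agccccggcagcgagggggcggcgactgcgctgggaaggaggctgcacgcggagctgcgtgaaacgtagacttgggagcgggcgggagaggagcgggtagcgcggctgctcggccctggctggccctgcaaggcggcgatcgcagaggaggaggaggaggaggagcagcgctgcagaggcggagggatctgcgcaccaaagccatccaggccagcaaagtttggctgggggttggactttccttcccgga
GC content was 43.2% in the *Inhba* window, and 20.1% of 32851 mouse promoter windows were at or below this value. It was 82.0% in *Acvr2a* and 69.2% in *Smad3*, against a median of 52.4%. Both strands were searched for the cAMP response element TGACGTCA and its shorter form TGACG, which lies within it. They were also searched for the AP-1 site TGANTCA, the Smad-binding box CAGAC and the TATA box TATAAA. *Inhba* held TATAAA beginning 91 bases before the start (position -91), a match present in 12.4% of all windows. *Acvr2a* held CAGAC on the reverse strand at -188, as 42.2% of windows did on either strand. No other match was found in these 3 windows, where 1.55% of all windows held the cAMP response element, 17.8% its shorter form and 6.75% the AP-1 site. Windows of *Acvr1*, *Acvr1b* and *Acvr2b* were also at hand, with 85.6%, 78.8% and 72.8% GC. That of *Acvr2b* held CAGAC on the reverse strand at -233, and those of *Acvr1* and *Acvr1b* held no match. A promoter window was at hand for 6 of the 10 genes.

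*Inhba* was higher in dVenus+ than in dVenus- cells of all 19 mice, whatever their training. In FC mice its dVenus+ level ran from 4.93 to 492 normalized CPM (median 171), and its dVenus- level from 0 to 77.0 (median 0, with 7 of 12 libraries at 0 counts). The lowest dVenus+ value was that of mouse 05 and the highest dVenus- value that of mouse 14, so the ranges of the groups overlapped although each mouse was higher in dVenus+. The means were 200 ± 135 and 7.79 ± 21.95 (SD, n = 12). In NS mice the dVenus+ values were 100.05, 22.6, 109 and 298 in mice 18, 19, 20 and 21, against 0, 4.83, 0 and 0 in dVenus-. In HC mice they were 38.7, 338 and 96.8 in mice 15, 16 and 17, against 0, 0.826 and 0. In both groups every dVenus+ library lay above every dVenus- library, as held for 6.00% of genes tested in NS and 15.1% in HC mice.

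**Figure D1:**
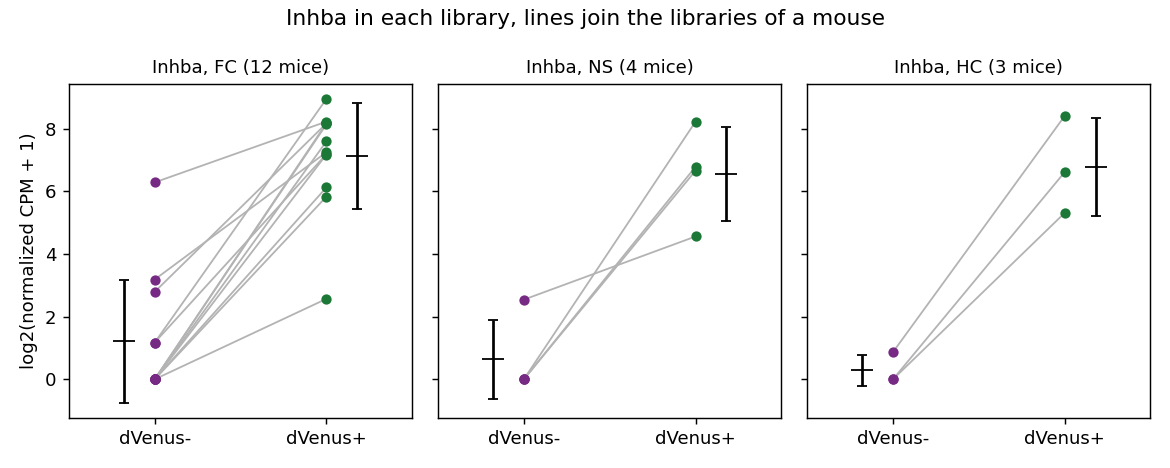
*Inhba* in each library as log2(normalized CPM + 1), with dVenus- in purple and dVenus+ in green, for 12 FC, 4 NS and 3 HC mice. Lines join the libraries of a mouse, and black bars give the mean and SD of each group. The line rises in every mouse, and the highest dVenus- point is that of FC mouse 14, at 77.0 normalized CPM.

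By edgeR's quasi-likelihood test with the mouse as block, *Inhba* was higher in dVenus+ by a log2 fold change of 7.09 ± 0.82 in FC mice (SE derived from the test statistic, adjusted p = 1.45e-06). A gene was called at an adjusted p under 0.05 and an absolute log2 fold change over 1, which 4.35% of the 9709 genes tested in FC mice met. Without FC mice 06, 07 and 14 the fold change was 7.19 (adjusted p = 7.21e-06). In NS mice alone it was 7.15 ± 1.88 (edgeR adjusted p = 0.201) and in HC mice alone 9.34 ± 2.32 (adjusted p = 0.677), neither called, where 0.0489% and 0% of genes were called. DESeq2's Wald test called both (adjusted p = 7.00e-08 and 9.89e-05), with 666 of 8187 genes called in NS and 625 of 7588 in HC mice. Over the 7 NS and HC mice it was 7.60 ± 1.38 (edgeR adjusted p = 0.00836), where 0.757% of genes were called. That call was lost without mouse 20 (adjusted p = 0.0620) or mouse 21 (adjusted p = 0.0538). Over all 19 mice it was 7.35 ± 0.71 (edgeR adjusted p = 5.52e-10), where 5.53% of genes were called, and 7.52 without FC mice 06, 07 and 14 (adjusted p = 1.19e-09). Being higher in every one of 19 mice held for 0.0710% of the 11263 genes tested there.

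The dVenus difference of *Inhba* was not shown to depend on training. The interaction of FC against NS was -0.17 (log2, 95% interval -4.29 to 3.95), that of FC against HC -2.29 (-8.30 to 3.71) and that of NS against HC -2.12 (-9.15 to 4.91), all uncalled by edgeR (adjusted p = 0.987, 0.796 and 0.956), where 0% of genes were called in each. These intervals allow large differences in either direction. Among dVenus+ cells, which share a batch in NS and HC mice, *Inhba* differed by -0.28 (log2, NS against HC, 95% interval -2.39 to 1.82, edgeR adjusted p = 0.978). In order, mean dVenus+ levels were 200 in FC, 158 ± 159 in HC (SD, n = 3) and 132 ± 117 in NS mice (SD, n = 4), all within the spread of each other. In bulk libraries of 10 cells, more expressing cells and more RNA per cell cannot be told apart.

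Summed microglial markers were higher in dVenus+ in 10 of 12 FC, 4 of 4 NS and 3 of 3 HC mice, and *Inhba* in all 19. The summed level of the 10 markers was between 39.0 and 2021 normalized CPM in FC dVenus+ (median 229) and between 1.11 and 826 in FC dVenus- libraries (median 37.7). In NS mice the medians were 776 and 23.5, and in HC mice 1361 and 313. *Aif1* was at 0 in all HC dVenus- libraries, and no other marker was at 0 throughout a group. In FC mouse 12 the sum was 39.1 in dVenus+ and 39.5 in dVenus- cells while *Inhba* was 280 and 0, and in FC mouse 06 it was 134 and 211 while *Inhba* was 55.8 and 0. In FC mouse 03, with the highest dVenus+ level of *Inhba* (492), the sum was 39.0 and 35.9. In FC mouse 05, with the lowest (4.93), the sum was 1028 and 826. Both were far higher in dVenus+ in other mice. The sum was 2021 and 255 in FC mouse 09, where *Inhba* was 192 and 0. In NS mouse 20 the sum was 1473 and 7.19, and *Inhba* was 109 and 0. Over all mice 8 of the 10 microglial markers were called higher, where 2.23% of the 11263 genes tested were. *P2ry12* and *Tmem119* were not called, and the median of *P2ry12* in FC mice was 2.62 in dVenus+ and 4.26 in dVenus- libraries. Of the 8 granule cell markers *C1ql2*, *Calb1* and *Stxbp6* were called lower, where 3.30% of genes were, and 0 were called higher. The uncalled *Rasgrp1* had FC medians of 27.3 in dVenus+ and 12.0 in dVenus- libraries. The part of microglial or granule cell RNA in the *Inhba* difference and in the results below was not tested.

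None of the receptor genes was called by edgeR with the mouse as block. *Acvr2a*, which encodes a type II receptor of activin, was the most evenly detected, with at least 10 counts in 34 of 38 libraries. In FC mice it lay between 0 and 265 normalized CPM in dVenus+ cells, with a median of 27.9, and between 20.6 and 139 in dVenus- cells, with a median of 60.4, and it was lower in dVenus+ in 9 of 12 mice. The log2 fold change was -1.02 ± 0.58 in FC (edgeR adjusted p = 0.368) and -0.89 ± 0.51 over all mice (edgeR adjusted p = 0.326). *Acvr1* lay between 0.482 and 199 in FC dVenus+ cells, with a median of 31.0, and between 1.91 and 47.5 in FC dVenus- cells, with a median of 8.52. Its groups overlapped, and it was higher in dVenus+ in 8 of 12 FC mice, with a log2 fold change of 1.36 ± 0.71 (edgeR adjusted p = 0.316). In HC mice the estimate was -1.99 ± 2.73 (edgeR adjusted p = 0.852), and it was 0.32 without mouse 16, whose values were 0 and 100.4. The other 2 of 3 mice were barely higher in dVenus+, at 16.4 against 14.5 in mouse 15 and 0.425 against 0 in mouse 17. The value of mouse 17 rests on 3 counts, the limit of detection.

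*Acvr1b*, the main type I receptor gene for activin, and *Acvr2b*, the other type II receptor gene, were seldom detected. *Acvr1b* reached 10 counts in 10 of 38 libraries, 3 of dVenus+ and 7 of dVenus- cells, and was at 0 in 22. It passed the count filter over all mice and in no single group, with a log2 fold change of -3.24 ± 1.11 (edgeR adjusted p = 0.0835). It was called without the mouse as block (-2.82, adjusted p = 0.0134), with 1086 of 11263 genes called. In HC mice it was at 0 in every dVenus+ library, and its dVenus- mean rested on 1 library at 57.3. *Acvr2b* reached 10 counts in 11 of 38 libraries. In NS mice all 4 dVenus- libraries were at 0 against a dVenus+ mean of 20.5 ± 25.4 (SD, n = 4), although 1 dVenus+ library was also at 0. With each dVenus- library set to 3 counts the ratio of the means was 55.6, which holds no variation between mice. Without mouse 21, the highest at 57.0, the dVenus+ mean was 8.40 and the limit 20.0-fold. In FC mice the dVenus+ mean was 3.88 and the dVenus- mean 8.68, an order that rested on mouse 09, without which they were 4.24 and 4.16. Over all mice the log2 fold change of *Acvr2b* was 1.33 ± 1.43 (edgeR adjusted p = 0.643). Its interaction of FC against NS was -11.41 ± 4.57 (log2, edgeR adjusted p = 0.480, unadjusted p = 0.0194) and was not called. An unadjusted p under 0.05 was met there by 9.28% of genes.

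*Fst*, whose product binds and neutralizes activin, was near the limit of detection. It was at 0 in 29 of 38 libraries and passed the count filter in no paired comparison. At least 10 counts were found in 4 of 12 FC dVenus- libraries, the highest at 61.2 normalized CPM, and in 0 of 12 FC dVenus+ libraries, where the highest value was 0.634. In HC mice 1 dVenus+ library reached 13.0.

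**Figure D2:**
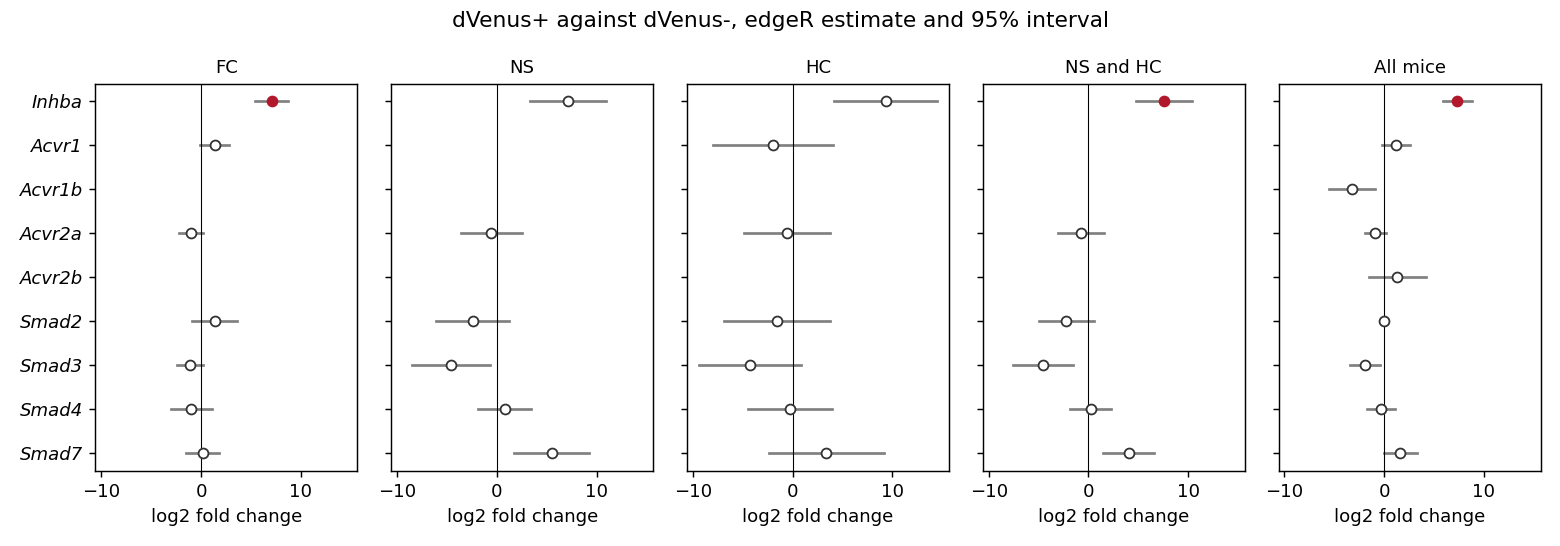
Log2 fold change of dVenus+ against dVenus- cells (horizontal axis) for 9 of the genes in 5 comparisons, with the 95% interval as a line, filled red where called and open where not. A gene below the count filter has no point, and *Smad2* over all mice, at -0.0027, has no interval. *Inhba* is the only filled point, in FC, in NS and HC together and in all mice.

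Of the Smad genes, *Smad3* had its largest differences in NS and HC mice, none of them called by edgeR. This transcription factor gene had at least 10 counts in all 19 dVenus- libraries and in 13 of 19 dVenus+ libraries. In NS mice the dVenus+ values were 0, 175, 0.216 and 3.01 in mice 18, 19, 20 and 21, against 152, 26.4, 142 and 91.7 in dVenus-. In HC mice they were 0.278, 0 and 224 in mice 15, 16 and 17, against 120, 171 and 140. Thus 2 of these 7 mice were higher in dVenus+ and 5 were far lower, and the groups overlapped. The log2 fold change was -4.53 ± 1.47 over NS and HC mice (edgeR adjusted p = 0.121, unadjusted p = 0.00450). An unadjusted p under 0.05 was met there by 16.3% of genes. DESeq2's Wald test called *Smad3* lower in NS mice (-6.93, adjusted p = 0.000657), in HC mice (-7.96, adjusted p = 0.00255), in NS and HC mice (-7.50, adjusted p = 2.38e-06) and over all mice (-2.29, adjusted p = 0.00521). In these it called 666 of 8187, 625 of 7588, 1065 of 7529 and 2127 of 11263 genes, far more than edgeR. In FC mice *Smad3* lay between 0.482 and 122 in dVenus+ cells, with a median of 45.9, and between 11.5 and 291 in dVenus- cells, with a median of 93.1, with 6 mice in each direction and a log2 fold change of -1.06 ± 0.63 (edgeR adjusted p = 0.401).

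*Smad7*, the inhibitory Smad gene, lay on the dVenus+ side in NS mice. Its dVenus+ values there were 9.29, 26.4, 5.62 and 2.51 in mice 18, 19, 20 and 21, against 0.321, 0.743, 0 and 0. The groups did not overlap, which held for 6.00% of the genes tested in NS mice, and the dVenus- values rested on at most 4 counts. In HC mice the values were 16.4, 90.0 and 0 against 2.58, 0 and 0.689, and overlapped. Over both groups the log2 fold change was 4.03 ± 1.27 (edgeR adjusted p = 0.110). *Smad7* was called there without the mouse as block (adjusted p = 0.0307, with 175 of 7529 genes called) and by DESeq2's Wald test (adjusted p = 0.00720, with 1065 called). In FC mice the log2 fold change was 0.19 ± 0.81 (edgeR adjusted p = 0.938), with 6 mice in each direction. The interaction of FC against NS was -5.33 ± 2.40 (log2, edgeR adjusted p = 0.503, unadjusted p = 0.0330) and was not called. An unadjusted p under 0.05 was met there by 9.28% of genes.

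**Figure D3:**
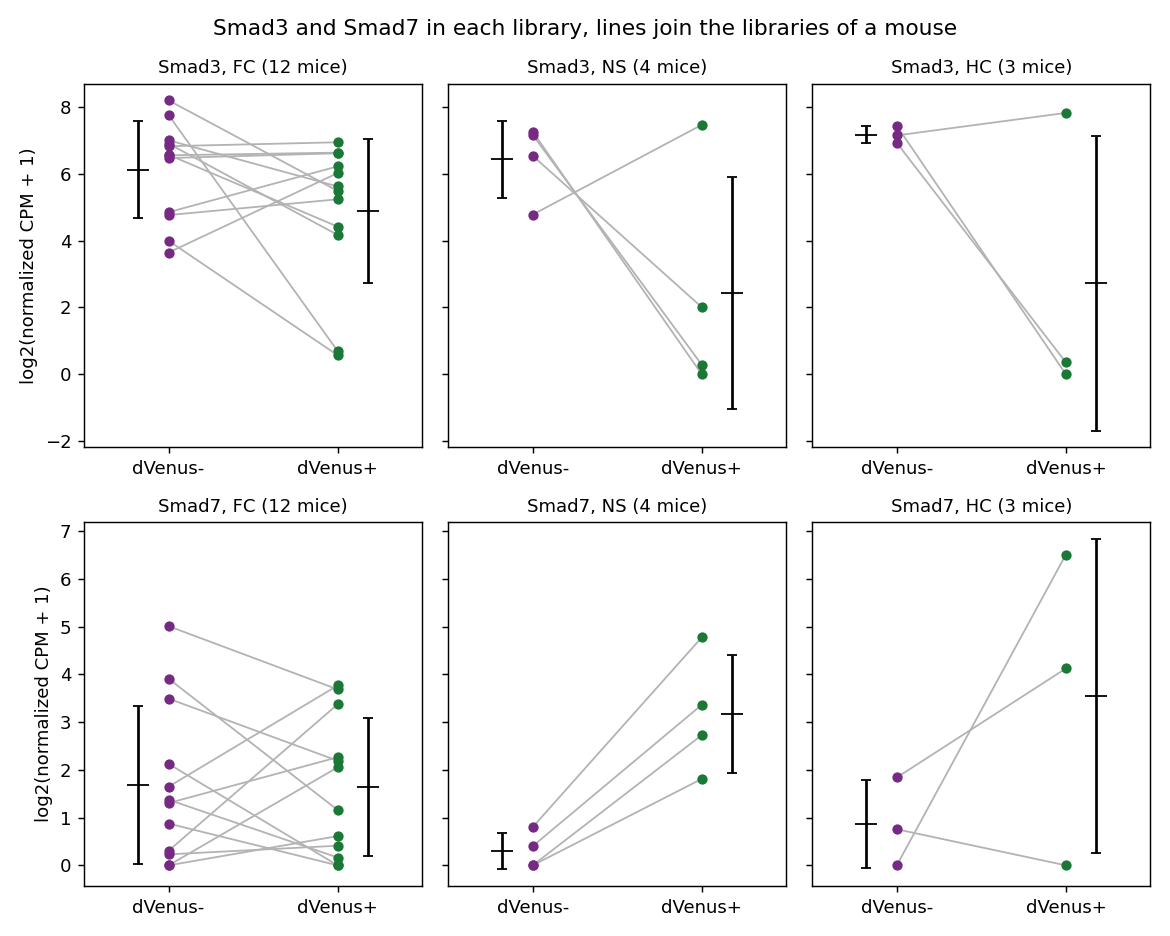
*Smad3* (top) and *Smad7* (bottom) in each library as log2(normalized CPM + 1), with dVenus- in purple and dVenus+ in green, lines joining the libraries of a mouse and black bars giving mean and SD. In NS mice *Smad7* rises in all 4 and *Smad3* falls in 3 of 4, whereas FC mice go both ways in both genes.

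*Smad2*, which with *Smad3* carries the receptor signal, and *Smad4*, their shared partner, were not called by edgeR. *Smad2* lay between 0 and 156 normalized CPM in FC dVenus+ cells, with a median of 9.52, and between 0.0838 and 40.4 in FC dVenus- cells, with a median of 4.81. Its log2 fold change was 1.37 ± 1.09 in FC (edgeR adjusted p = 0.561), -2.43 ± 1.80 in NS (adjusted p = 0.704) and -1.55 ± 2.42 in HC mice (adjusted p = 0.876). *Smad4* had at least 10 counts in 30 of 38 libraries, with log2 fold changes of -0.98 ± 1.02 in FC (edgeR adjusted p = 0.680), 0.79 ± 1.32 in NS and -0.30 ± 1.92 in HC mice. In NS and HC mice alone the intervals of both reach past a log2 fold change of 1 in either direction.

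Per kilobase of exon, which allows genes to be set side by side, mean levels over all dVenus- libraries ran in the order *Smad3* (19.6 normalized CPM per kb), *Acvr2a* (10.4), *Smad4* (6.30), *Acvr1* (3.22), *Acvr1b* (1.76), *Smad2* (1.67), *Acvr2b* (1.52), *Fst* (0.895), *Inhba* (0.817) and *Smad7* (0.810). In dVenus+ libraries *Inhba* came first at 28.1, ahead of *Smad3* (9.71) and *Acvr2a* (9.02), and *Fst* was at 0.162. In both orders all 9 gaps between neighbours, that of *Inhba* included, were smaller than the larger SD over libraries of the pair.

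Among 66 further genes of the pathway, 25 could be tested in FC mice, of which *Acvr1c* was called higher and *Skil* lower, with 4.35% of all genes called. Over all mice 30 could be tested and the same 2 genes were called, with 5.53% of all genes called. The median log2 fold change of the tested pathway genes was 0.19 over all mice, beside -0.09 for all genes tested. None of the 66 was called in NS mice, HC mice, both together or any interaction.

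*Acvr1c* encodes a type I receptor related to that of *Acvr1b*. It was higher in dVenus+ in 12 of 12 FC mice and in 16 of all 19. In FC mice it lay between 4.62 and 305 normalized CPM in dVenus+ cells, with a median of 65.5, and between 0 and 72.2 in dVenus- cells, with a median of 11.9. The log2 fold change was 2.60 ± 0.65 in FC (edgeR adjusted p = 0.0188) and 2.22 ± 0.56 over all mice (adjusted p = 0.0138). Without FC mice 06, 07 and 14 it was 2.50 in FC (edgeR adjusted p = 0.0892) and 2.11 over all mice (adjusted p = 0.0522), so both calls were lost, as they were by edgeR's older quasi-likelihood method (adjusted p = 0.0946 and 0.0748). Over all mice the call was also lost without the mouse as block (adjusted p = 0.0874).

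*Skil* encodes SnoN, a corepressor of Smad-dependent transcription. It lay between 0.289 and 36.4 in FC dVenus+ cells, with a median of 3.88, and between 12.5 and 86.6 in FC dVenus- cells, with a median of 46.4, and was lower in dVenus+ in all 19 mice. The log2 fold change was -3.09 ± 0.69 in FC (edgeR adjusted p = 0.00740) and -2.86 ± 0.48 over all mice (adjusted p = 0.000208). In FC mice the call was lost, and the fold change was -2.77, without mice 06, 07 and 14 (edgeR adjusted p = 0.0545). It was also lost by edgeR's older quasi-likelihood method (adjusted p = 0.0601) and in each of the 3 batches alone. Over all mice it was -2.68 without mice 06, 07 and 14 (edgeR adjusted p = 0.00168).

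**Figure D4:**
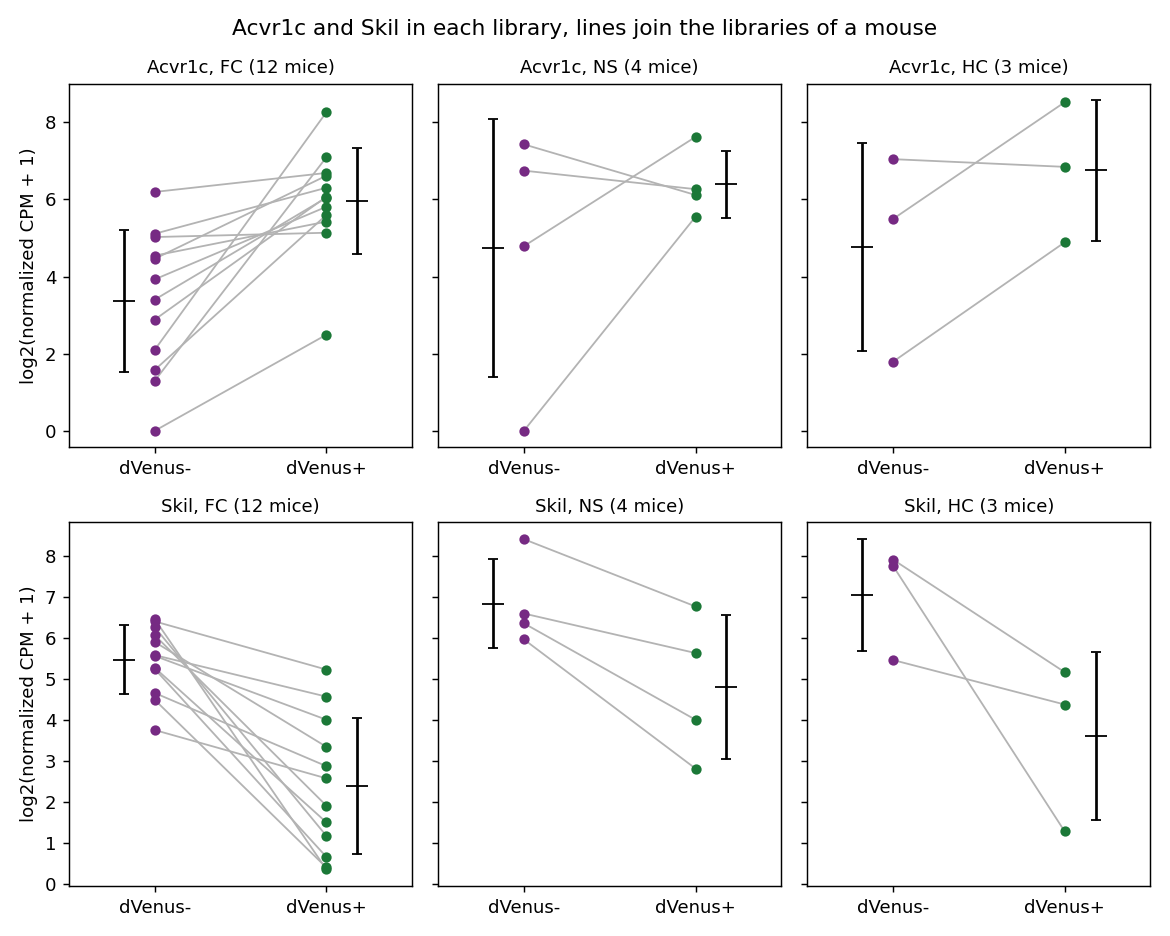
*Acvr1c* (top) and *Skil* (bottom) in each library as log2(normalized CPM + 1), with dVenus- in purple and dVenus+ in green, lines joining the libraries of a mouse and black bars giving mean and SD. *Skil* falls in all 19 mice, and *Acvr1c* lies higher in most dVenus+ libraries, up to 366 in HC mouse 16.

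By list, 4 of 20 other ligand genes were tested over all mice, with 0 called and a median log2 fold change of 0.12. *Inha*, which encodes the inhibin subunit that pairs with the activin chain, had a mean of 38.7 ± 49.9 in dVenus+ and 14.0 ± 22.6 in dVenus- libraries (SD, n = 19) and a log2 fold change of 2.11 ± 0.91 (edgeR adjusted p = 0.169). Of 11 other receptor genes 6 were tested and 1, *Acvr1c*, was called. *Tgfbr1*, a type I receptor gene for TGF-beta, had a log2 fold change of -1.83 ± 0.80 (edgeR adjusted p = 0.174). Of 8 other antagonist and follistatin-like genes 5 were tested, and of 4 other Smad genes 3, with 0 called in either list. Of 13 regulators and partners 10 were tested and *Skil* alone was called, and *Nedd4l*, a ubiquitin ligase gene, had a log2 fold change of -1.17 ± 0.39 (edgeR adjusted p = 0.0681). Of 10 commonly used target genes 2 were tested, and *Id2* had a log2 fold change of 0.98 ± 0.48 (edgeR adjusted p = 0.236).

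Across the 38 libraries, the genes whose levels ranked most like that of *Inhba*, out of 11262, included *Arc* (Spearman's rho 0.819), *Fam98a* (0.795), *Bdnf* (0.776) and *Cntn3* (0.764). These values carry the contrast of dVenus+ with dVenus- cells, and the part of sequencing depth in them was not tested. Of the other members *Acvr1* stood highest (0.304) and *Smad3* lowest (-0.431). Across the differences within the 19 mice, the leading genes were instead *Ctdp1* (0.782), *Sft2d1* (0.763), *2310057M21Rik* (0.751), *Rab33a* (0.739) and *Map3k10* (0.730), and *Arc* was at 0.139.

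The genes lie on several chromosomes in the GRCm38 annotation, *Inhba* at chr13:16011851-16031621, *Fst* at chr13:114452290-114458951, *Acvr1* at chr2:58388644-58567157, *Acvr2a* at chr2:48814109-48903269, *Acvr1b* at chr15:101174067-101213684, *Acvr2b* at chr9:119402118-119434995 and *Smad3* at chr9:63646767-63757994, with *Smad2*, *Smad4* and *Smad7* on chromosome 18. *Inhba* overlaps *B230303A05Rik* and *Gm48444* on the opposite strand, and *Acvr2a* overlaps *Orc4*. Whether counting used the strand is not given in the sources used here, so reads of such partners could not be told apart.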

How the data were processed

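The authors deposited raw counts per gene for each of 38 libraries, made by aligning single reads to mm10 with TopHat2 2.0.13 and counting uniquely aligned reads on NCBI transcripts with HTSeq 0.6.0, without normalization, after full-length amplification of the RNA. Reads have no molecular identifiers. The 5 entries that name no gene were left out, and the entry for reads outside genes took 16.4% to 59.7% of uniquely aligned reads. A table of all libraries with the same values for fewer genes was not used.

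Groups and mice were taken from sample titles, since for 10 libraries (NS or HC) the description field pointed to a different one. The series' design text gives more FC mice than the 12 analysed here. Both libraries of a mouse come from the same animal, so the mouse was a block. The deviations of its libraries from the group means correlated weakly (FC median 0.0360, NS median -0.0109, HC median 0.0218).

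Tests used edgeR 4.0.16 in R 4.3.3 with TMM scaling and its newer quasi-likelihood method (legacy = FALSE), two-sided, on genes that reached 10 counts in a minimum number of libraries, equal to the number of mice compared (10 libraries for all mice and interactions, 3 for NS against HC). P-values were adjusted after Benjamini-Hochberg. On simulated counts, 95 of 100 genes changed by a log2 fold change of 6 were called in the FC design and 14 of 100 changed by 2, with 4 false among 113 calls. The other designs recovered 38 (NS), 9 (HC), 72 (NS and HC) and 98 (all mice) of 100 changed by 6, and false calls reached 8 of 81 in NS and HC and 12 of 134 in all mice. Simulated counts used the dispersion that edgeR estimated from these data and no difference in mean between mice. Recovery and false calls in the real libraries may therefore differ. Alternatives were DESeq2 1.42.0 (size factors, Wald test), no count filter, no block, each mouse left out, single FC batches, FC mice with *Arc* in dVenus- cells left out, and an exact sign-flip permutation test on log2(normalized CPM + 1), sampled 100000 times for 19 mice. The older quasi-likelihood method (the default of this edgeR version) and a filter of 3 libraries were added as alternatives after seeing the data. The choice of the newer method for the reported values was also made after the calls of both were seen, to match earlier processing of these data.

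The members and lists were chosen with earlier results of these data known. Named are all members, pathway genes called in any comparison, at most 3 further genes a list by mean level, and the 5 genes most like *Inhba* by each of 2 correlations, of which 1 is not reported here. *Inha*, *Tgfbr1*, *Nedd4l* and *Id2* are of those 3.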

Additional observations from a re-analysis of the deposited data

Results flagged for a closer look

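In the groups of 4 NS libraries, 1 library lay far from the other 3 in 6 of 20 combinations of gene and cell type, where chance would give about 1 in 20 for values without ties. In 4 of the 6 the other 3 libraries were at 0, so that any count in the remaining one meets the rule, and the chance rate does not apply to them. The highest NS dVenus+ library stood apart for *Smad3* at 175 normalized CPM, for *Acvr1b* at 0.251 and for *Fst* at 0.502. The highest NS dVenus- library stood apart for *Inhba* at 4.83, for *Acvr1* at 8.91 and for *Acvr1b* at 0.743. The values of *Acvr1b* and *Fst* rest on a few counts.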

How the results depend on the processing

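*Inhba* was called higher without any single FC mouse (log2 fold change 6.68 to 7.70) and without any single mouse of all 19 (7.12 to 7.81), and under the other alternatives in FC and all mice except 2 single FC batches, where 0 members were called. In the batch of 2 mice its adjusted p was 0.521, and in that of 4 mice it did not pass the count filter. Over NS and HC mice its call was lost without mouse 20 or 21, by the sign-flip permutation test (adjusted p = 0.260) and by the older quasi-likelihood method (adjusted p = 0.0949), leaving 0 members called, and between 0 and 1 without single mice. The sign-flip test could give no call there. *Inhba* had the smallest p that it allows with 7 mice (0.0156), and 0 of 7529 genes were called. Its sign turned in NS against HC, where nothing was called. The interaction was 0.89 by DESeq2 and 0.57 by the older method, and the difference in dVenus+ cells lay between -1.06 and 0.93 without single libraries, at 0.93 without replicate 16 and 0.07 without replicate 19. DESeq2's Wald test called *Inhba* and *Smad3* in NS, HC and all mice (2 of 6, 7 and 9 members tested). In NS and HC together it called 3 of 6, with *Smad7* added. Of all genes it called 666 of 8187 in NS and 625 of 7588 in HC mice. The shares were 1065 of 7529 in NS and HC and 2127 of 11263 over all mice. For the FC against NS interaction it called 2 members and 1152 of 11263 genes. For FC against HC these were 1 member and 1551 genes. Without the mouse as block, 2 members were called in NS and HC (*Smad7* added) and 2 in all mice (*Acvr1b* added, adjusted p = 0.0134), and the block changed the call of no other member. *Acvr1c* and *Skil* in FC mice were not called by the older method (adjusted p = 0.0946 and 0.0601) or in any single batch, and *Acvr1c* over all mice not by the older method (0.0748). Counts over all genes moved more. In FC mice 422 genes were called, against 1635 by DESeq2, 0, 12 and 15 in the single batches, 154 without mice 06, 07 and 14, and 137 by the older method, and 292 to 405 without single mice. In NS mice 4 were called, against 11 with DESeq2's size factors, 1 without the count filter, 666 by DESeq2, 13 without the block, 0 by the older method and by sign flips, and 0 to 2 without single mice. The sign-flip test cannot go below p = 0.125 in NS or 0.250 in HC mice. In HC mice 0 were called (532 at an unadjusted p under 0.05), against 625 by DESeq2 and 2 by the older method, and 0 without single mice. Over NS and HC mice 57 were called, against 36, 8, 1065, 175 without the block, 7 with the filter of 3 libraries, 2 by the older method and 0 by sign flips, and 4 to 45 without single mice. Over all mice 623 were called, against 392 without the filter, 2127 by DESeq2, 1086 without the block, 270 without mice 06, 07 and 14, and 177 by the older method, and 454 to 626 without single mice. In the interactions 0 were called, against 1152, 1551 and 1323 by DESeq2 (1045, 1253 and 942 at an unadjusted p under 0.05 by edgeR), and 1 by the older method for NS against HC. Between NS and HC, 0 were called in either cell type (773 and 756 at an unadjusted p under 0.05), against 110 and 144 by DESeq2, and 0 to 8 without single dVenus- libraries. The cause of these changes was not tested. On simulated counts 1 of 100 genes changed by a log2 fold change of 2 was called in the NS design and 0 of 100 in the HC design.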
